A study of Homo sapiens with 18 samples.

Results

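U6 small nuclear RNA (snRNA) is the RNA at the catalytic centre of the spliceosome. RNA polymerase III (Pol III) makes it from a promoter that lies upstream of the gene, and the transcript ends in a run of U read from a run of T. The La protein, encoded by SSB, binds such U tails on newly made Pol III transcripts before the ring of Lsm proteins takes over the U6 tail. U6 pairs with U4 in the tri-snRNP, and its ACAGAG box later pairs with the 5′ splice site. The human genome holds a few expressed U6 genes and many copies of them, most of which are annotated as pseudogenes.

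The U6 rows described here are those of the deposited count table whose name begins with RNU6- or U6_snRNA and that span at most 500 nt. Rows of the minor spliceosome RNA U6atac were left out. The rule found 948 of 175935 rows, and 1 further row was left out for its length. Of the 948 rows, 545 held 0 counts in every library and 403 held at least 1 count. Rows with the same counts in all libraries were taken once, which left 266 distinct rows. No such repeated row held more than 4 counts in all, so the step removed little of the signal.

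The libraries were small RNA-seq of HEK293T, a human embryonic kidney cell line. All cells were transfected, either with si-scramble (control) or with si-SSB (siSSB), and RNA was taken after 48 h from whole cells (total), nuclei (nuc) or cytoplasm (cyto). Each of the 6 groups had 3 libraries, 18 in all, and every library title carries the words Plus PNK, a kinase that repairs RNA ends. By the methods of the study the replicates are biological and were handled on the same day, and p-values measure the spread between these libraries. SSB itself is not among the rows of the table, so the knockdown could not be checked here. Column sums ranged from 21565995 to 158244813 counts, and U6 took 1304 to 4759 counts of each library. The ratio of snoRNA to mitochondrial tRNA counts, a marker of the fractions, was 248 to 371 in nuc libraries and 1.7 to 5.44 in cyto libraries. In the 3 siSSB total libraries it was 47.4, 23.4 and 51.2, against 40.4 to 50.3 in control total. The ratio of siSSB total replicate 2 was thus the lowest in total RNA, though above every cyto library. Of the long nuclear RNAs, NEAT1 was higher in control nuc than in control cyto (log2 fold change 0.81 ± 0.29 SE, adjusted p = 0.0422, edgeR after TMM scaling). TMM scaling sets the bulk of the rows equal between libraries. MALAT1 did not pass the test (0.19 ± 0.30, adjusted p = 0.7), and neither did NEAT1 in siSSB cells (0.79 ± 0.31, adjusted p = 0.0638). Each is given by its row with the highest mean count, of 30 rows for NEAT1 and 39 for MALAT1. Raw MALAT1 counts were lower in control nuc (214, 153 and 102) than in control cyto (475, 419 and 698). Raw NEAT1 counts were also lower in control nuc (257, 249 and 198) than in control cyto (450, 389 and 770), although the nuc column sums were larger. The direction for NEAT1 thus rests on the scale. RNY1, RNY3, RNY4 and RNY5, the cytoplasmic Y RNAs, were all lower in nuc, with log2 fold changes from -4.01 to -1.59 in control cells.

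Only 9 of the 948 rows contain the whole body of RNU6-1, counted without its last run of T, and these 9 rows held 28579 of 39660 U6 counts (72.1%). The other 939 rows, called copies, held 11081. Rows are compared by the part of RNU6-1 that they share. Its 20 bases 28 to 47, counted from the 5′ end, are called the central window and contain the ACAGAG box.

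Of the 9 rows, 5 are the genes known to be expressed, called canonical: RNU6-1 (row at chr15:67839915-67840070, minus strand), RNU6-2 (chr19:1021497-1021652, plus), RNU6-7 (chr14:32202020-32202176, plus), RNU6-8 (chr14:32203139-32203294, minus) and RNU6-9 (chr19:893459-893615, plus). RNU6-1 lies in an intron of a gene on the opposite strand, and the other canonical genes lie between genes in GENCODE release 44. The other 4 rows are annotated as pseudogenes, although their bodies are identical to RNU6-1: RNU6-3P (chrX:141118006-141118161, minus, an intron of LDOC1), RNU6-4P (chr3:181231712-181231867, plus, an intron of SOX2-OT), RNU6-5P (chr2:174557942-174558097, minus, an intron on the opposite strand) and RNU6-6P (chr10:13217244-13217399, plus, between genes). Row coordinates include 25 nt on each side of the annotated RNA in 621 of the 948 rows. Reads of identical copies cannot be assigned to 1 of them, and how such reads were placed is not given in the sources used here.

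The upstream bases differed between most canonical genes and the 4 identical rows. The 75 bases before the gene are shown for 2 canonical genes and 2 of the 4 other rows, with matches to TATA (bases -35 to -20) and ACCNTAA (bases -75 to -45, part of the proximal sequence element) in capitals.

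RNU6-1: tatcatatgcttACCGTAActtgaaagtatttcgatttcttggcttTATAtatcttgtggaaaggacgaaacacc
RNU6-7: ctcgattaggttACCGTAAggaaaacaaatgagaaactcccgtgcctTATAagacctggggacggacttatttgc
RNU6-4P: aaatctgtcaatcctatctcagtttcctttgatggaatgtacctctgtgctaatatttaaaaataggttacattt
RNU6-5P: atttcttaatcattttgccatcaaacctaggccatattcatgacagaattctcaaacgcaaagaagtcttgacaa

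These upstream sequences lie at chr15:67840046-67840120, chr14:32201970-32202044, chr3:181231662-181231736 and chr2:174558073-174558147. TATA was found in 3 of 5 canonical genes, ACCNTAA in 4 of 5, and the octamer ATTTGCAT (bases -250 to -180, either strand) in 4 of 5. RNU6-9, the row with the most U6 counts, had the octamer but neither TATA nor ACCNTAA. None of these 3 motifs was found in the 4 other identical rows. Among the 939 copies, 9.37% had TATA, 1.06% had ACCNTAA and 0.532% had the octamer at these places. The same letters at the same places were found in 5.45%, 0.245% and 0.43% of 35116 RefSeq promoters (GRCh38.p14). Searches for TATA and ACCNTAA used the gene strand only. RNU6-581P was the 1 copy with both TATA and ACCNTAA, and it held 0 counts. The 4 identical rows without these motifs held a mean of 182 to 215 counts per library, within the range of 96.4 to 223 of the canonical genes. Reads within an identical body cannot be assigned to 1 row, so these means do not show which rows are transcribed.

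In the 3 control total libraries RNU6-1 held 219, 151 and 124 counts. It held 305, 524 and 307 in control nuc libraries, against 86, 91 and 136 in the cyto libraries of the same cells. After si-SSB the counts were 105, 103 and 117 in total, 246, 272 and 240 in nuc, and 129, 96 and 106 in cyto. The raw counts were highest in the nuc libraries of both siRNAs, and those of total and cyto RNA overlapped. RNU6-5P, annotated as a pseudogene, held 210, 185 and 123 counts in total, 322, 514 and 296 in nuc, and 92, 101 and 139 in cyto libraries of control cells. These values lay close to those of RNU6-1 in the same libraries, apart from replicate 2 of control total (185 against 151). RNU6-5P and RNU6-1 have the same body, and reads within it cannot be told apart. RNU6-7 held fewer, with 121, 79 and 88 counts in total, 140, 261 and 153 in nuc, and 66, 82 and 83 in cyto libraries of control cells. RNU6-9 held the most of all U6 rows when summed over libraries, and its counts in control cells were 227, 165 and 158 in total, 291, 559 and 337 in nuc, and 130, 127 and 214 in cyto.

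**Figure D1:**
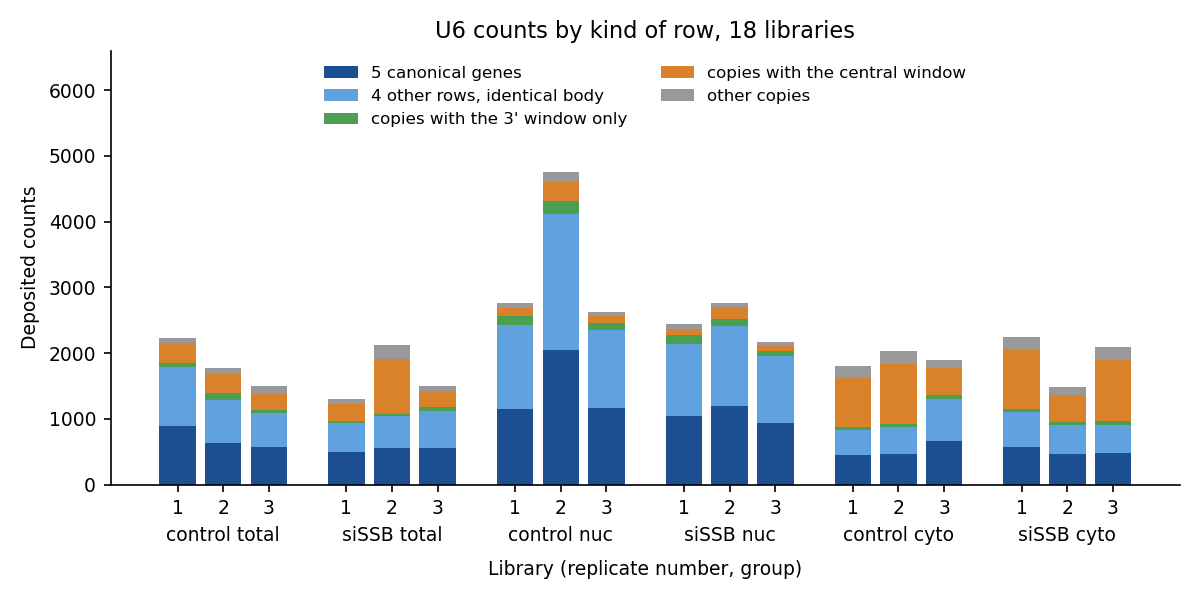
Deposited U6 counts (y axis) in each of the 18 libraries (x axis, replicate number within group), stacked by kind of row. The rows with the intact body fill 86.4% to 90.7% of the nuc bars, while copies with the central window fill 21.8% to 45.0% of the cyto bars.

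The order of the 9 rows by mean count followed the length of the T run that ends the gene in the genome. This grouping was made after the counts had been seen and is given as a description. The 3′ ends are shown with the T run in capitals, 30 bases each.

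RNU6-7: cgttccataTTTTgcgcggttcaacgaagg
RNU6-8: cgttccataTTTTgcgcagtctgtcaagat
RNU6-1: cgttccataTTTTTacatcaggttgttttt
RNU6-2: cgttccataTTTTTgctgtagtctacagct
RNU6-4P: cgttccataTTTTTTaattgaaaatcatta
RNU6-3P: cgttccataTTTTTTTgagaaatgcaaatc
RNU6-9: cgttccataTTTTTTTTTTTTTTTccattt

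RNU6-7 and RNU6-8, with 4 T, held a mean of 107 and 96.4 counts per library. The 4 rows with 5 T (RNU6-1, RNU6-2, RNU6-5P and RNU6-6P) held 181 to 192. RNU6-4P with 6 T held 205, RNU6-3P with 7 T held 215 and RNU6-9 with 15 T held 223. Both rows with 4 T lay below the other 7 in 17 of 18 libraries, siSSB total replicate 2 being the exception. The rows with 5 T or more changed places from library to library, so their order rests on sums over libraries.

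The gap between 4 T and 5 T depended on the fraction. A row with 4 T held 0.449, 0.482 and 0.455 times the counts of a row with 5 T in control nuc. In control cyto the ratios were 0.805, 0.799 and 0.697. In siSSB nuc they were 0.455, 0.448 and 0.388, and in siSSB cyto 0.733, 0.583 and 0.709. The ratio was thus lower in every nuc library than in every cyto library of the same siRNA. The mean log2 difference, nuc minus cyto within both siRNAs, was -0.69, which is given with no test because the T run groups were formed on these counts. In control total the ratios were 0.503, 0.541 and 0.675, and in siSSB total 0.782, 0.901 and 0.569, of which 0.901 belongs to replicate 2.

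**Figure D2:**
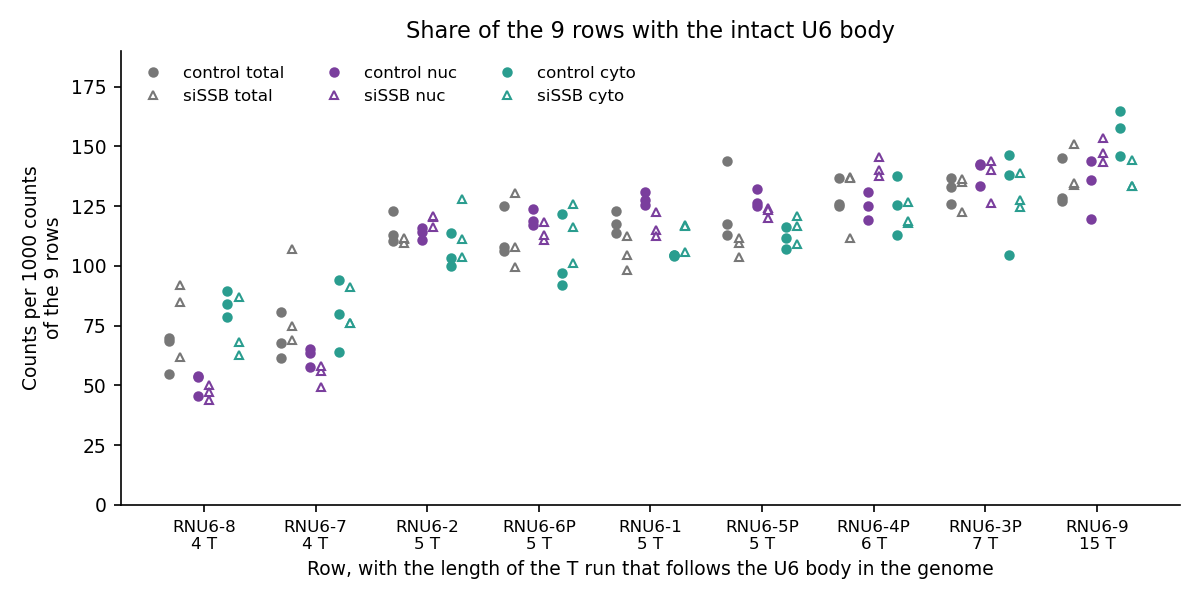
Counts per 1000 counts of the 9 rows with the intact body (y axis) for each row (x axis, with its T run), 1 point per library; filled circles are control and open triangles siSSB. The 2 rows with 4 T lie below the others in every nuc library.

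The counts of the copies rose with the longest unbroken stretch that they share with U6, although many copies with a short stretch held a few counts. Among 277 copies whose longest stretch identical to RNU6-1 was at most 14 bases, 230 held 0 counts (83.0%) and the highest summed count over the 18 libraries was 8. Of the 192 copies with 20 to 24 bases, 107 held 0 counts. Of the 55 copies with 30 to 39 bases, 3 held 0 counts and the median was 22. All of the 31 copies with at least 40 bases held counts, with a median of 253 and a range of 7 to 709. Across the 939 copies the rank correlation of summed counts with this length was 0.565, and with overall identity 0.34. Both describe rows of the same libraries, and near-identical copies share reads.

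Copy counts were also described by the place of the shared stretch. Of all windows of 20 bases along RNU6-1, the central window covered the largest part of the copy counts, and it was chosen for that. It is present in 39 of 939 copies, none of which was at 0, and these held 7360 of 11081 copy counts (66.4%), a share that the choice itself makes high. Windows of 15, 25 and 30 bases, placed in the same way, covered 72.2%, 57.1% and 46.3%, and again no copy that held them was at 0. A further 18 copies hold the last 20 bases of RNU6-1 but not the central window, and they held 1409 counts, 709 of them in RNU6-42P. The remaining 882 copies held 2312 counts, a mean of 2.62 each, and 545 of them were at 0.

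**Figure D3:**
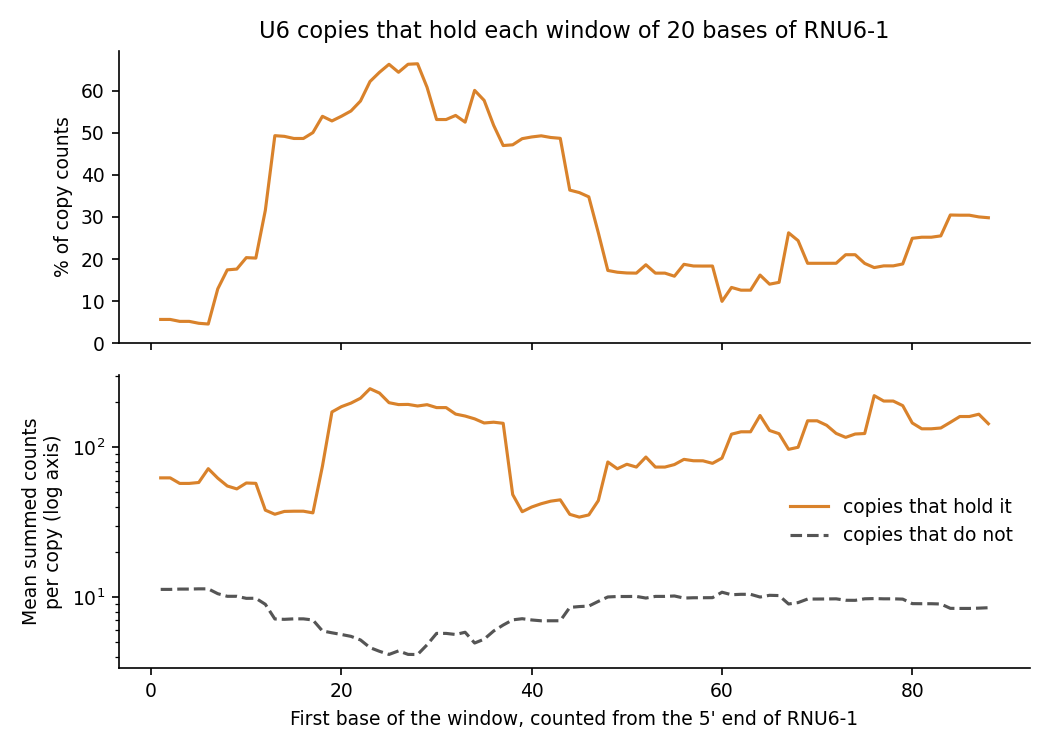
For each window of 20 bases of RNU6-1 (x axis, its first base), the percent of copy counts held by copies that contain it (top) and the mean summed counts per copy with and without it (bottom, log axis). The top curve reaches 66.4% for the window that starts at base 28 and is 5.64% for the window at the 5′ end.

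Of the 24 copies with the most counts, 23 hold the central window and the other is RNU6-42P. The window was chosen on these counts, which makes that number high, so it is no separate support for the window. In contrast, RNU6-1103P held 0 counts in all 18 libraries although it differs from RNU6-1 at only 9 bases, and its longest unbroken stretch shared with RNU6-1 is 24 bases.

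RNU6-48P lies in an intron of TMEM222 (row at chr1:27325194-27325350, plus), RNU6-14P in an intron on the strand opposite to CCDC171 (chr9:15776156-15776311, minus), RNU6-20P in an intron of KIFC3 (chr16:57830511-57830667, minus), RNU6-42P in an intron on the strand opposite to PAK2 (chr3:196784955-196785111, minus) and RNU6-1103P between genes (chr7:24537307-24537463, plus). RNU6-48P held 549 counts over the 18 libraries, RNU6-39P 401, RNU6-14P 370, RNU6-20P 352 and RNU6-70P 348. RNU6-70P is only 72.0% identical to RNU6-1 over its length, but shares an unbroken stretch of 49 bases with it. Of the 939 copies, 560 lie in introns, 38 overlap exons and 341 lie between genes.

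The kind of row was tied to the fraction. The 9 intact rows held 88.0%, 86.4% and 89.4% of U6 counts in control nuc and 87.9%, 87.3% and 90.7% in siSSB nuc. In control cyto they held 45.8%, 42.9% and 68.7%, and in siSSB cyto 48.9%, 61.2% and 43.4%. Every nuc library lay above every cyto library, and 95% Wilson intervals of these shares, which cover counting error only, reached at most 2.48 percentage points to either side. Copies with the central window took 4.81%, 5.93% and 4.16% of U6 counts in control nuc and 41.7%, 45.0% and 21.8% in control cyto. After si-SSB they took 3.78%, 6.25% and 3.56% in nuc and 39.4%, 27.7% and 44.5% in cyto. The ratio of central-window copies to intact rows does not depend on any scaling between libraries. Its mean log2 difference, nuc minus cyto within both siRNAs, was -3.73, given with no test because the window was chosen on these counts. The share of the 5 canonical genes, chosen by name, was 41.4%, 42.9% and 44.4% in control nuc, against 24.97%, 22.8% and 35.2% in cyto libraries of the same cells. After si-SSB it was 42.6%, 42.9% and 43.5% in nuc, against 25.3%, 30.95% and 23.1% in cyto. It was higher in nuc by 0.69 on the log2 scale within both siRNAs. By an exact two-sided permutation test of libraries within siRNA p = 0.005, the smallest it can give (adjusted over 7 ratios computed, 0.0058). This share falls where copies take more of the U6 counts, so the test does not single out the canonical genes. Against the 4 other intact rows they held fewer counts in every nuc library and more in every cyto library. In control nuc they held 1145, 2041 and 1164 counts against 1288, 2072 and 1181. In control cyto they held 450, 463 and 665 against 375, 407 and 634. The cyto libraries with the smallest copy share, control replicate 3 and siSSB replicate 2, were also those with the highest snoRNA to mitochondrial tRNA ratio of their group, 5.44 and 2.53, and the part of this in the result was not tested.

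In total RNA the share of the intact rows lay between those of the fractions, except in siSSB total replicate 2, which lay within the siSSB cyto range. The intact rows held 80.1%, 72.4% and 72.5% of U6 counts in control total. They held 71.6%, 49.2% and 74.7% in siSSB total, where 49.2% belongs to replicate 2. Without that library the groups still overlapped.

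The question of where U6 lies in the cell was addressed by nuc against cyto. In control cells 38 U6 rows passed the filter on low counts and 15 were called (edgeR quasi-likelihood test, adjusted p under 0.05 over all rows tested), against 23.3% of all 26774 rows tested. Of these, 11 were higher in nuc (9.21% of all rows tested were) and 4 lower (14.1%). In siSSB cells 21 of 41 were called, against 25.3% of all rows, with 10 higher (10.8% of all rows) and 11 lower (14.5%). The higher rows were the 9 intact rows and RNU6-42P in both siRNAs, and RNU6-48P in control cells. All lower rows were copies with the central window, but so were most copies tested. In control cells 24 tested copies held the central window, 1 held the 3′ window only and 4 held neither. In siSSB cells these numbers were 28, 2 and 2. The window was chosen on these counts, so the lower calls do not set its copies apart from the others. The comparisons of fractions and of siRNAs share libraries and are not independent of each other. A row enters the test through the group in which it is high, so these counts describe the rows tested and not the 948.

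Among rows higher in nuc, RNU6-1 had the largest difference in control cells, with a log2 fold change of 3.85 ± 0.35 (SE; adjusted p = 1.09e-10). RNU6-6P with 3.76 ± 0.35 and RNU6-5P with 3.75 ± 0.34 followed it. RNU6-7 and RNU6-8, the genes with 4 T, had the smallest of the 9, with 3.22 ± 0.35 and 2.85 ± 0.34. In siSSB cells the 9 rows ranged from 2.33 for RNU6-8 to 3.18 for RNU6-4P. RNU6-42P, which shares the 3′ end but not the whole central window, moved with the intact rows in both siRNAs, with 3.47 ± 0.36 and 3.25 ± 0.36. It differs from RNU6-1 at few bases and keeps the ACAGAG box and all bases after it. RNU6-48P, RNU6-39P and RNU6-20P hold the same last 20 bases as well as the central window. Their shares of U6 counts were lower in every nuc library than in every cyto library of the same siRNA. These shares are another measure than the fold changes above, and on the TMM scale RNU6-48P was called higher in control nuc. The part of the shared 3′ end in these differences was not tested. All 9 intact rows and RNU6-42P passed the test without any 1 library and by DESeq2.

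Calls of single central-window copies rested on few counts. RNU6-820P, in an intron on the strand opposite to PIP5K1B, held 35, 43 and 15 counts in control cyto and 0, 5 and 1 in control nuc. After si-SSB it held 43, 24 and 41 counts in cyto and 2, 5 and 1 in nuc. It was lower in nuc in both, with -2.05 ± 0.73 in control and -1.94 ± 0.53 in siSSB cells. The siSSB call held without any 1 library (adjusted p = 0.00181 to 0.0342, edgeR), while the control call was lost without cyto replicate 1 or 2 or nuc replicate 1 or 3 (adjusted p = 0.0594 to 0.255) and by DESeq2 (adjusted p = 0.0732). RNU6-48P was higher in control nuc, with 1.33 ± 0.41 (adjusted p = 0.0143, edgeR), and lost the call without cyto replicate 3 (adjusted p = 0.103) or nuc replicate 2 (0.0756). RNU6-70P was lower in siSSB nuc, with -1.45 ± 0.49 (adjusted p = 0.029, edgeR), and lost the call without cyto replicate 3 (adjusted p = 0.162) or any 1 of the nuc replicates (0.0513 to 0.125) and by DESeq2 (0.0736).

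**Figure D4:**
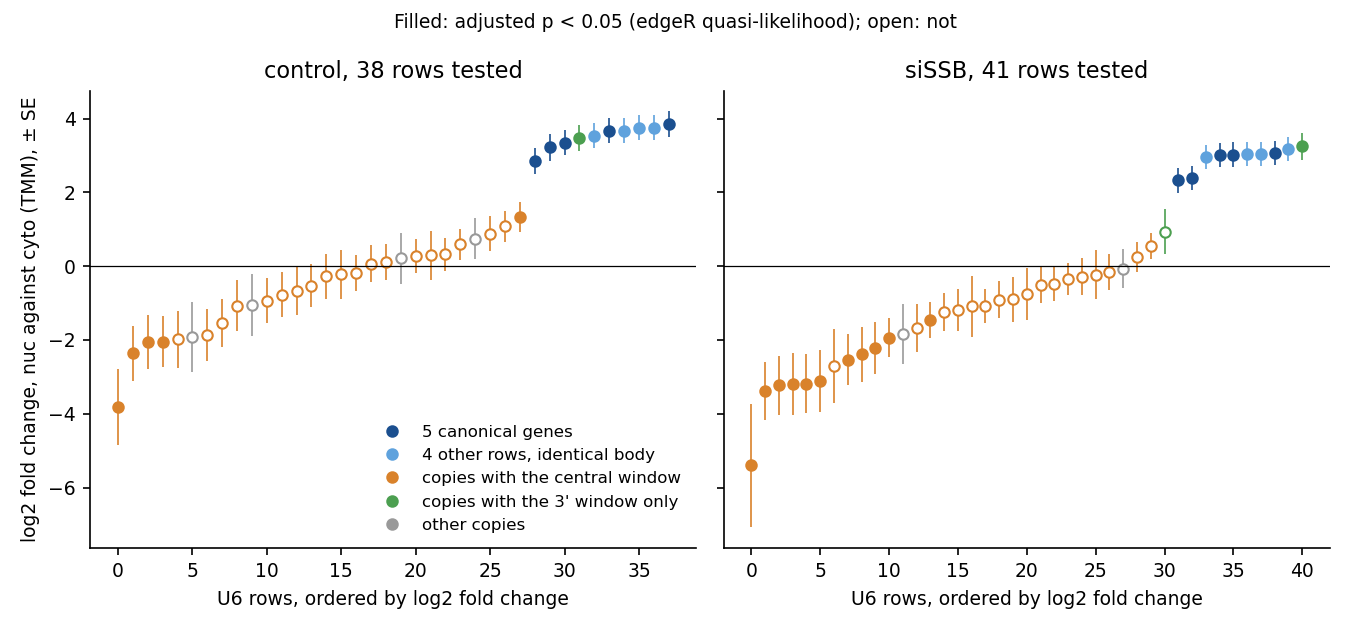
Log2 fold change of nuc against cyto with SE (y axis, TMM scaling) for each U6 row tested, ordered by size (x axis), in control and siSSB cells; colours give the kind of row and filled points passed the test. The 9 intact rows and RNU6-42P lie at 2.33 or above in both panels, and no copy with the central window exceeds 1.33.

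These directions hold on the TMM scale, and the scaling decides them. The summed canonical genes were higher in nuc by 3.45 ± 0.33 in control and 2.87 ± 0.31 in siSSB cells, with a mean of 46.2 ± 17.4 CPM (counts per 1000000 of the scaled library size, SD, n = 3) in control nuc and 4.22 ± 0.21 in control cyto. By library size alone the values were -0.72 and -0.96, but the median of all rows tested then stood at -4.33 and -3.96 instead of -0.27 and -0.19. With the snoRNA total as the scale they were -2.54 and -3.01, with all-row medians of -6.11 and -5.99. The split of calls moved with the scale, as it did for all rows, of which 92.3% to 97.6% were lower in nuc by library size, the snoRNA total or the other snRNAs. In control cells 0 rows were higher and 31 lower by library size, 0 and 38 by the snoRNA total, 0 and 28 by the total of the other snRNAs, and 10 and 7 by the miRNA total. In siSSB cells these splits were 0 and 38, 0 and 41, 1 and 31, and 10 and 7. By the miRNA total 6.34% of all rows were higher and 16.3% lower in control cells, and 9.44% and 10.1% in siSSB cells.

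A ratio to U4, the partner of U6 in the tri-snRNP, is free of that choice. The 9 intact rows held 2.57, 3.02 and 2.999 times the counts of RNU4-1 and RNU4-2 together in control nuc and 1.08, 1.06 and 1.20 times in control cyto. In siSSB nuc the ratios were 2.59, 2.47 and 2.62, and in siSSB cyto 0.891, 0.929 and 0.941. All nuc libraries lay above all cyto libraries, by 1.42 on the log2 scale within both siRNAs, given with no test because this ratio was chosen after values were seen. The same rows per 1000 counts of the other spliceosomal snRNAs came to 5.32, 8.03 and 5.59 in nuc libraries of control cells, against 4.60, 5.28 and 3.19 in cyto libraries, where replicate 2 nearly reached the lowest nuc value. Their log2 difference within both siRNAs was 0.54 (exact two-sided permutation test of libraries within siRNA, p = 0.005, the smallest it can give; adjusted 0.0058). This holds for the intact rows only. All U6 rows, copies included, came to 6.05, 9.29 and 6.25 per 1000 in control nuc and 10.0, 12.3 and 4.65 in control cyto. After si-SSB they came to 5.32, 6.15 and 6.77 in nuc and 7.88, 5.08 and 9.59 in cyto. The fractions thus overlapped for all U6 rows in both siRNAs.

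The second question was whether U6 responds to loss of La. No U6 row was called in any fraction by edgeR or by DESeq2. In total RNA 0 of 24 rows tested were called, against 1.34% of all rows, and 3 had an unadjusted p under 0.05. In nuc 0 of 14 were called, against 0.378%, with 4 under 0.05 unadjusted, and in cyto 0 of 41, against 0.291%, with none under 0.05. On the scale of the miRNA total 8 of the 9 intact rows, all but RNU6-8, were called lower in total RNA, where 16.3% of all rows tested were called lower and their median stood at -0.55.

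In total RNA the summed canonical genes had 7.79 ± 0.98 CPM after si-SSB and 11.2 ± 3.72 in control (SD, n = 3), a log2 fold change of -0.52 ± 0.27, and the groups overlapped. Scaled counts of a bulk sample give shares of a library, so the amount of U6 per cell cannot be read from them. By library size, the snoRNA total and the total of the other snRNAs the value in total RNA was 0.072, 0.25 and 0.24, so its sign rests on the scale. In nuc the means were 8.45 ± 0.24 and 12.4 ± 4.89, a log2 fold change of -0.55 ± 0.31, again with overlap. Without control nuc replicate 2, whose raw count for RNU6-1 was 524, this became -0.20, and without control nuc replicate 1 it became -0.83. The value in total RNA became -0.23 without control total replicate 1 and -0.31 without siSSB total replicate 2, and reached -0.72 without control total replicate 3. In cyto the canonical sum was 17.5 ± 0.65 after si-SSB and 19.1 ± 1.36 in control, a log2 fold change of -0.13 ± 0.24, with groups that did not overlap on the TMM scale. Under other scalings and row sets the value in cyto ran from -0.27 by the other snRNAs to 0.22 by the snoRNA total. The whole U6 total had log2 fold changes of -0.34 ± 0.28, -0.55 ± 0.30 and -0.10 ± 0.28 in total, nuc and cyto RNA.

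**Figure D5:**
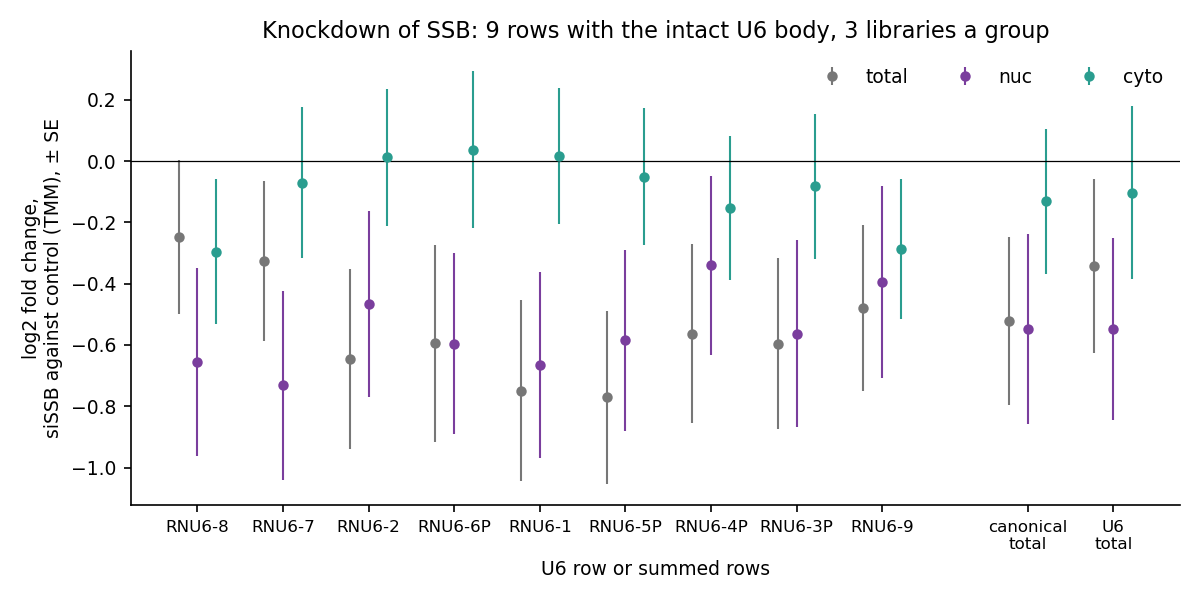
Log2 fold change of siSSB against control with SE (y axis, TMM scaling) for the 9 intact rows, their canonical sum and the U6 total (x axis), in total, nuc and cyto RNA. The 9 rows lie between -0.77 and -0.25 in total RNA, between -0.73 and -0.34 in nuc and between -0.30 and 0.04 in cyto, and none passed the test.

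On the TMM scale all 9 intact rows had negative log2 fold changes in total RNA and in nuc, from -0.77 for RNU6-5P to -0.25 for RNU6-8 and from -0.73 for RNU6-7 to -0.34 for RNU6-4P. In cyto 6 of the 9 were negative, from -0.30 to 0.04. These rows share reads and libraries and are not separate observations. The central-window copies tested in total RNA, 14 in number, had a median of 0.25, beside -0.01 for all rows tested. In siSSB total replicate 2 they held 833 counts together, against 257 and 231 in the other siSSB total libraries and 258 to 313 in control total. This is the library whose snoRNA to mitochondrial tRNA ratio was the lowest in total RNA, and the part of that in the copies' value was not tested. The difference between the nuc and cyto effects of the knockdown was tested as an interaction, in which 0 of 48 U6 rows were called, against 0.0133% of all rows, and 1 had an unadjusted p under 0.05 (edgeR; DESeq2 also called 0). For the canonical sum that difference was -0.56 ± 0.42.

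The other RNAs of the pathway give the setting. Of 18 listed snRNAs of the major and minor spliceosome 13 had a row, and 12 of 13 tested were higher in control nuc on the TMM scale, with a median of 2.48, against 9.21% higher and 14.1% lower among all rows. RNU1-1, which pairs with the 5′ splice site before U6 does, had 3.80 ± 0.35, and RNU4-2 had 2.54 ± 0.32. By library size 0 of these snRNAs were higher and 11 lower, as were 96.3% of all rows. Of 3 Pol III RNAs with a promoter of the U6 kind, RMRP (2.06 ± 0.34) and RPPH1 (2.09 ± 0.36) were higher in control nuc and RN7SK, which restrains P-TEFb, was lower (-1.22 ± 0.29), all 3 being lower by library size. All 6 listed C/D snoRNAs that guide methylation of U6 (SNORD7, SNORD8, SNORD9, SNORD10, SNORD67 and SNORD94) were higher in control nuc, from 3.69 for SNORD7 to 7.92 for SNORD10, while with the snoRNA total as the scale 1 was higher and 3 lower, against 0.769% higher and 97.5% lower among all rows. After si-SSB 0 of the snRNAs, the 3 Pol III RNAs and the 6 guides were called in any fraction by edgeR with TMM or by DESeq2, against 1.34%, 0.378% and 0.291% of all rows in total, nuc and cyto RNA. In total RNA 7 snRNAs and 5 guides were lower on the miRNA scale, against 16.3% of all rows. By library size 1 guide was lower, against 0.634% of all rows, and 1 by the snoRNA total, against 0.353%. Without the filter on low counts 2 guides were lower, given without the share of all rows. In total RNA the tested snRNAs had a median log2 fold change of -0.75 and the guides of -0.85, beside -0.01 for all rows.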

How the data were processed

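The authors deposited 1 table of raw counts, whole reads per annotated noncoding RNA, with no normalization. Per the labels, Bowtie2, bedtools and hg38 were used, and strand use and the placement of reads with several sites are not given in the sources used here. Overlapping rows count a read more than once, so column sums exceed reads. Starts are 0-based in the table and were written 1-based. U6 sequences were read from hg38 by these coordinates, and 914 of 948 rows matched a U6 gene of GENCODE release 44 on the same strand. The RefSeq promoter table held 0 U6 genes, so upstream bases came from the genome. The sequences of whole U6 bodies are not reported here.

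Counts were tested in edgeR 4.0.16 (R 4.3.3, limma 3.58.1; glmQLFit and glmQLFTest) after filterByExpr with TMM factors, each pair of groups on its own 6 libraries, the interaction on 12, with Benjamini-Hochberg adjustment over all rows tested. SEs follow from the F statistic. Summed rows joined each fit and carry no p. DESeq2 1.42.0, other scalings, filters, row sets, a replicate block, all 18 libraries in 1 fit and leaving out each library were alternatives. With 3 libraries against 3 an exact permutation test cannot go below 0.1, so 2 of 7 ratios computed are given with such a test within both siRNAs (400 arrangements). The scripts were checked on simulated counts with known changes, made in rows with a mean of at least 50 counts. Log2 changes of 1 and -1 were recovered in 68% and 56% of rows for knockdown in nuc. For the interaction they were recovered in 16% and 6%. A lack of calls after knockdown thus does not show that changes of this size were absent. TMM factors were 3.63 to 4.81 in control cyto and 0.229 to 0.248 in control nuc.

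Named rows were the 5 canonical genes, the 10 most abundant other U6 rows by mean count, and, in each comparison, at most 3 called rows in either direction whose mean reached 50 counts and whose CPM ranges were apart. RNU6-820P, RNU6-581P and RNU6-1103P fall outside this rule and were named after their values were seen, as were the T run groups, the ratios to U4 and between T runs, and the central window chosen. The U6 rows, the lists and the tests were chosen with earlier results of these data known. U4, U1 and other rows of repeated genes were taken as the row with the highest mean. Same-numbered libraries did not deviate together (correlations of -0.42 to 0.13, 2 of 15 pairs over 0.1), so the numbers were not taken as pairs.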

Additional observations from a re-analysis of the deposited data

Results flagged for a closer look

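RNU6-9, the canonical gene with 15 T, was compared with the 4 intact rows with 5 T because its ratio to them moved in opposite directions in the fractions. In nuc the ratio was 0.965, 1.12 and 1.18 in control and 1.26, 1.31 and 1.19 after si-SSB. In cyto it was 1.49, 1.31 and 1.61 in control and 1.20, 1.12 and 1.28 after si-SSB. All 3 siSSB libraries lay above control in nuc and all 3 lay below control in cyto. The difference of the effects, nuc minus cyto, was 0.50 on the log2 scale. No p is given, since the ratio was singled out for this very pattern. RNU6-9 held 121 to 559 counts in these libraries. By edgeR the interaction of RNU6-9 itself was -0.25, which did not pass the test.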

How the results depend on the processing

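The nuclear counts of calls, 15 in control and 21 in siSSB cells, became 31 and 38 by library size, 38 and 41 by the snoRNA total, and 28 and 32 by the total of the other snRNAs, all or nearly all lower. Of all rows tested, 98.7% and 98.5% were called by library size, 98.3% and 98.3% by the snoRNA total, and 97.2% and 96.1% by the other snRNAs. These counts thus describe the scale and not U6. Without the filter on low counts the control count was 30, given without the share of all rows. The U6 total, 2.76 in control and 2.15 in siSSB cells (log2, nuc against cyto), became -1.44 and -1.69 by library size, -3.29 and -3.76 by the snoRNA total, and -0.32 and -0.30 by the other snRNAs. It became 2.29 and 1.77 without the filter, and 3.30 and 2.91 in rows of at most 500 nt. By the miRNA total it was 2.35 in siSSB cells. The canonical total became -0.72 and -0.96 by library size and -2.54 and -3.01 by the snoRNA total, and the median of the rows named became -0.81 and -0.86, then -2.62 and -2.91. After knockdown in total RNA, 8 rows were called by the miRNA total, where 16.5% of all rows were, and 0 under every other setting run. There the U6 total of -0.34 became 0.31 by library size, 0.50 by the snoRNA total, -0.87 by the miRNA total, 0.46 by the other snRNAs and 0.062 in rows of at most 500 nt. The interaction of the U6 total, -0.60, became -0.24 by library size, -0.16 by the miRNA total and 0.017 by the other snRNAs. The cause of these shifts was not tested.

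Leaving out 1 library gave 12 to 21 calls in control and 17 to 25 in siSSB cells for nuc against cyto, and 0 in every other comparison. The share of all rows called in these fits is not given here, so the counts show only how far the U6 calls moved. The U6 total then ranged from 2.45 to 2.99 and from 1.98 to 2.24, its interaction from -0.81 to -0.25 (the last without control nuc replicate 2), and its knockdown value from -0.54 to -0.10 in total RNA (-0.10 without control total replicate 1), from -0.82 to -0.20 in nuc (-0.20 without control nuc replicate 2) and from -0.24 to 0.08 in cyto (0.08 without control cyto replicate 2). With a replicate block, although no pairing was found, 19 and 22 rows were called for nuc against cyto and 0 elsewhere, again without the share of all rows. Under the replicate block the U6 total was 2.73 and 2.16 for nuc against cyto, -0.30, -0.48 and -0.08 after knockdown in total, nuc and cyto RNA, and -0.59 for the interaction. No U6 rows overlap, so taking 1 row a locus gave the same values.

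U6 counts per library were 1304 to 4759, and most copies held too few counts to be tested. The share of U6 counts in intact rows had Wilson 95% intervals of 0.973 to 2.48 percentage points to either side. Intervals cover counting error only, since the reads carry no molecular identifiers.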
